A study of Mus musculus with 6 samples.

Results

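Examined here were 31 genes of cholesterol synthesis, SREBP control and sterol transport, chosen by gene symbol, of 45513 identifiers in the count table. They fall into 5 roles, with 7 genes of the mevalonate steps, 11 of the squalene and sterol steps, 5 of SREBP control, 3 of transport within the cell and 5 of the LXR and efflux branch. All 31 had enough counts to be tested. Their messenger RNA was measured by RNA-seq, in paired reads of 100 bases, in keratinocytes isolated from the skin (labelled epidermis) of 6 C57BL/6 mice.

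Cholesterol is made in the cytosol and the endoplasmic reticulum from acetyl-CoA, first through mevalonate to farnesyl diphosphate, then through squalene and a chain of sterols. The transcription factors SREBP1 and SREBP2, which turn on the genes of this chain, are made as membrane proteins: SCAP carries them to the Golgi for cleavage when sterols are scarce, and the INSIG proteins hold SCAP back when sterols are abundant. The liver X receptors (LXR) respond to oxidised sterols and turn on genes of sterol export. In the epidermis, keratinocytes make much of their own cholesterol, which joins ceramides and fatty acids in the lamellar lipids of the skin barrier.

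The LAMA3_KO mice (n = 3) were Lama3flox/flox with K14-CreERT, and loxP sites flanked exons 50 to 53 of Lama3, which encodes the alpha chain of the laminin that anchors basal keratinocytes. Cre in these mice works once tamoxifen is given, here in chow with 400 mg per kg, and the keratin 14 promoter limits it to basal keratinocytes and their descendants, so other cells of the skin keep the gene. The Control mice (n = 3) are described in the design text as Lama3wt/flox with the same K14-CreERT, while their genotype label reads wild type. The design text does not say outright that the Control mice ate the tamoxifen chow too. Age and sex are not among the labels.

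Total counts lay between 20126395 and 28473479 per library. Xist and Ddx3y counts put LAMA3_KO 1 and 2 and Control 1 with females and LAMA3_KO 3 and Control 2 and 3 with males. The first principal component of all genes held 67.4% of the variance and separated the groups. Lama3 was read at 97.3, 98.9 and 79.2 CPM in LAMA3_KO 1, 2 and 3, against 141, 142 and 114 CPM in Control 1, 2 and 3 (log2 fold change -0.53, SE 0.14, adjusted p 0.0215), where CPM is the count scaled to library size and TMM factor. That call was lost without LAMA3_KO 1, Control 1 or Control 2 (adjusted p 0.0551, 0.062 and 0.0584 in that order), and reads from exons outside the deleted part still count toward the gene.

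Promoter sequences are shown for 5 genes: Hmgcs1, the only one with an exact sterol element among the 25 genes that had a window, Srebf2 and Hsd17b7, which rose, and Insig1 and Insig2, the genes that fell. The choice was made after their values were seen. Each window runs from 250 bases before to 50 bases after the start given by RefSeq on GRCm38.p6, written 5′ to 3′ on the gene's own strand. Capitals mark the sterol element TCACNCCAC, the site known to bind SREBP, with up to 1 mismatch, and the box CCAAT, the site of NF-Y, which is known to act with SREBP, both on either strand. The windows lie at chr13:119690101-119690400 for Hmgcs1, chr15:82147019-82147318 for Srebf2 and chr5:28071162-28071461 for Insig1, all on the plus strand. Those of Hsd17b7, at chr1:169969156-169969455, and Insig2, at chr1:121327975-121328274, are on the minus strand. Insig2 has 3 such windows, of which the one with a match to the sterol element is shown, and counts per gene do not separate its starts.
Hmgcs1: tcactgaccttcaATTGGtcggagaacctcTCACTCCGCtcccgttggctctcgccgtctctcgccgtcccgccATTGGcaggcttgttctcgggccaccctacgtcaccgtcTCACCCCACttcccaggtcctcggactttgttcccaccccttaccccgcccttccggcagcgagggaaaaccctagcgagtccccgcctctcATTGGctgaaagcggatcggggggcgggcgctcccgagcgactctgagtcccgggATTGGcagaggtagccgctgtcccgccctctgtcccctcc
Srebf2: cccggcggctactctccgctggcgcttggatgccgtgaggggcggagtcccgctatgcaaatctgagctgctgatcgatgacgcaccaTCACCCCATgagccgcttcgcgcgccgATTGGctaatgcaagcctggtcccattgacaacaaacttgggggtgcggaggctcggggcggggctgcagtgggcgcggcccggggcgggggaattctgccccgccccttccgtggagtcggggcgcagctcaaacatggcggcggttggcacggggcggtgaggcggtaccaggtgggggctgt
Hsd17b7: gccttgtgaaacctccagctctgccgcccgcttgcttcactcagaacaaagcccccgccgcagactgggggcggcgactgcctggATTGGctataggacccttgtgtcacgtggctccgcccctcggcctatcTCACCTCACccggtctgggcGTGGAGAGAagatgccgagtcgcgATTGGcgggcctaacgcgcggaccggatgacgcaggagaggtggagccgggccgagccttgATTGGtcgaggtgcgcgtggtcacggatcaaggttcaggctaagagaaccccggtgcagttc
Insig1: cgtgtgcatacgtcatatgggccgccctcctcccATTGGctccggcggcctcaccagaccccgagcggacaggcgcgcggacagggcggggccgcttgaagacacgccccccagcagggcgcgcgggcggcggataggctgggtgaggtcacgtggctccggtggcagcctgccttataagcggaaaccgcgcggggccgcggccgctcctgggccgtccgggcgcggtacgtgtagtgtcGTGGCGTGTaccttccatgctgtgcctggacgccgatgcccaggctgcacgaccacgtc
Insig2: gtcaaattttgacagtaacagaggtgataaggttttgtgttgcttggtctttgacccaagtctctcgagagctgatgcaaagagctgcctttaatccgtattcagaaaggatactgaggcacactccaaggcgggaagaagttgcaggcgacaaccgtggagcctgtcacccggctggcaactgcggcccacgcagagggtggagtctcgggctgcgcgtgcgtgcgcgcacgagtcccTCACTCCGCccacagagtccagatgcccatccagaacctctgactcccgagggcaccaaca

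RefSeq windows were matched for 25 of the 31 genes. The exact element TCACNCCAC stood in 1 of these 25 genes, against 1.44% of the 11014 tested genes with a window. Allowing 1 mismatch, a search added after the exact one, it stood in 12 of 25 genes (48.0%), against 29.2% of tested genes. CCAAT stood in 20 of 25 genes (80.0%), against 42.4% of tested genes, and in 14 of 15 synthesis enzymes with a window. The GC box GGGCGG, a binding site of Sp1 that is not marked in the capitals, stood in 22 of 25 (88.0%), against 66.6% of tested genes. All motifs were searched on both strands, and matches of different motifs may overlap. Among the 8 genes with a window that rose, 4 held the element with up to 1 mismatch and 6 held CCAAT, and both genes that fell held each of them in at least 1 of their windows. A match is a string of letters and not a measured binding site.

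Of the 31 genes, 12 rose in LAMA3_KO and 2 fell, by edgeR's quasi-likelihood test at an adjusted p under 0.05 over all 15513 tested genes. The 12 are 38.7% of the 31, beside 17.4% of all tested genes called higher, and the 2 are 6.5%, beside 18.8% of all tested genes called lower. Every LAMA3_KO library lay above every Control library for 12 genes, and below for 6, against backgrounds of 25.2% and 26.5% of tested genes. The median log2 fold change of the 31 was 0.41, and that of all tested genes was -0.02. Upper-quartile scaling moved the median of all genes by -0.148 on the log2 scale and gave 10 genes higher and 5 lower among the 31. In such tissue samples, fewer cells of a type and less RNA per cell cannot be told apart.

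**Figure D1:**
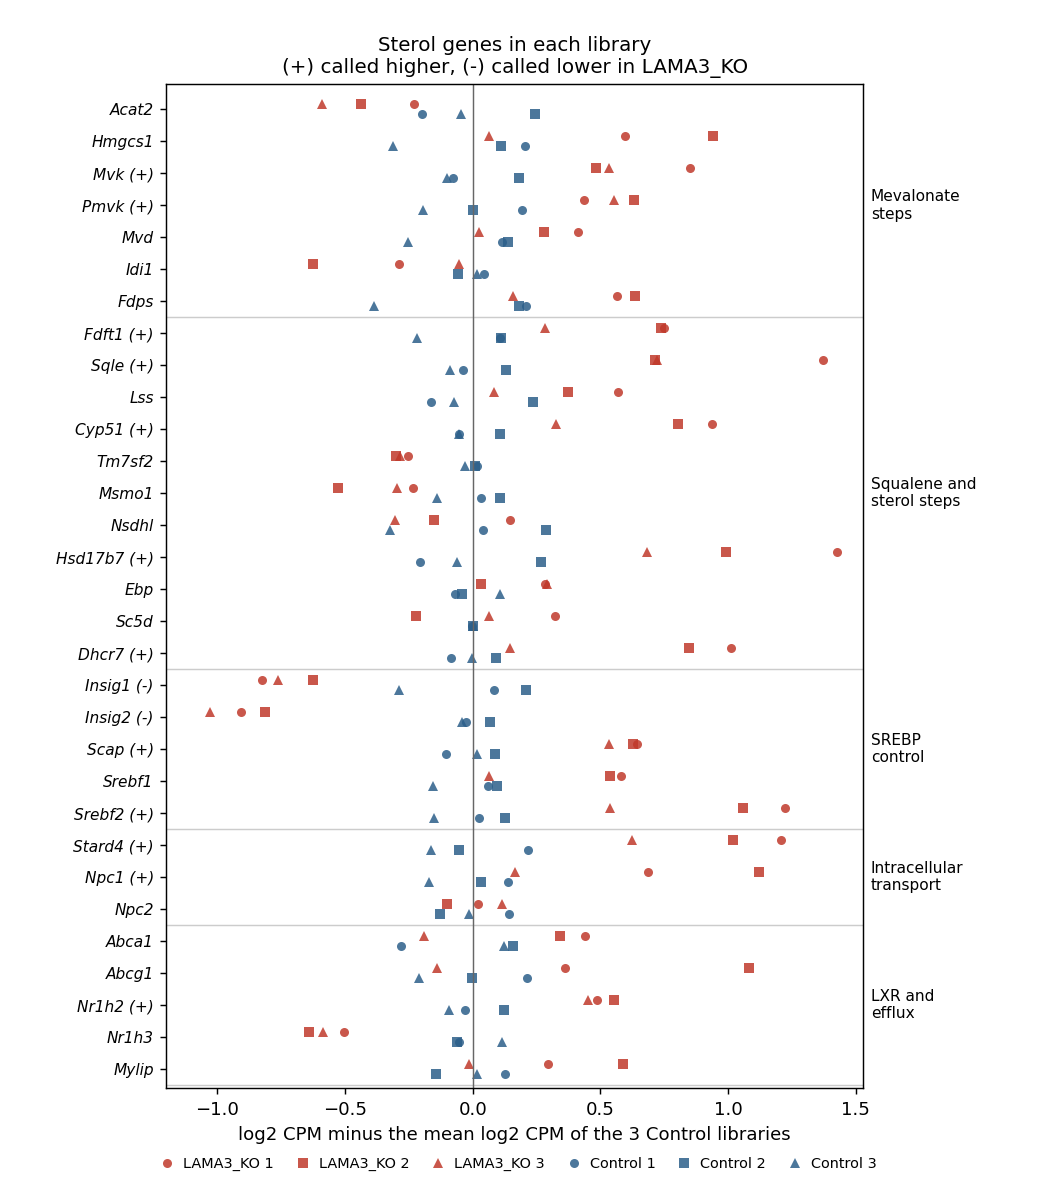
Each row is a gene and each point a library, placed by its log2 CPM minus the mean log2 CPM of the 3 Control libraries, with LAMA3_KO in red above Control in blue and the roles named at the right. Insig1 and Insig2 stand clear to the left and Hsd17b7, Sqle, Srebf2 and Stard4 furthest to the right, and LAMA3_KO 3 (red triangles) is often the LAMA3_KO library nearest to the Control libraries.

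The mevalonate steps moved unevenly: 2 of 7 genes rose and none fell by edgeR, DESeq2 or limma-voom. These are 28.6% and 0.0%, beside 17.4% and 18.8% of all tested genes by edgeR. The median log2 fold change of the 7 was 0.44. At an unadjusted p under 0.05, 1 gene, Acat2, was lower. The kinases that add phosphates to mevalonate were the ones that rose. Mvk, mevalonate kinase (ENSMUSG00000041939, chromosome 5, 114444269 to 114460591, plus strand), had 88.7, 68.7 and 71.2 CPM in LAMA3_KO 1, 2 and 3, against 46.6, 55.7 and 45.8 CPM in Control 1, 2 and 3. All 3 LAMA3_KO libraries were above all Control libraries, a log2 fold change of 0.63 (SE 0.14, adjusted p 0.0124). Pmvk, phosphomevalonate kinase (ENSMUSG00000027952, chromosome 3, 89454541 to 89469013, plus strand), had 63.9, 73.3 and 69.4 CPM in LAMA3_KO 1, 2 and 3, against 54.0, 47.3 and 41.4 CPM in Control 1, 2 and 3. The groups were again apart (log2 fold change 0.53, SE 0.13, adjusted p 0.0156), although without Control 3 the adjusted p of Pmvk was 0.0582.

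The step into mevalonate synthesis and the steps after the kinases did not pass the test. Acat2, the thiolase that joins acetyl-CoA units, had 49.0, 42.3 and 38.1 CPM in LAMA3_KO 1, 2 and 3, against 50.0, 68.0 and 55.6 CPM in Control 1, 2 and 3. Its LAMA3_KO libraries all lay below its Control libraries, LAMA3_KO 1 only just (log2 fold change -0.42, SE 0.15, adjusted p 0.0586), and it was called lower without Control 1 (adjusted p 0.0484). Acat2 has a close neighbouring copy, Acat3, and the sharing of reads between them is not given in the sources used here.

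Hmgcs1, which makes hydroxymethylglutaryl-CoA from the product of Acat2, varied widely between libraries. It had 529, 672 and 366 CPM in LAMA3_KO 1, 2 and 3, against 403, 378 and 282 CPM in Control 1, 2 and 3. LAMA3_KO 3 lay below Control 1 and 2, so the groups overlapped (log2 fold change 0.56, SE 0.25, adjusted p 0.108), and without LAMA3_KO 3 the gene was called higher (adjusted p 0.0308). Mvd, the decarboxylase after the kinases, averaged 32.4 ± 4.32 CPM in LAMA3_KO and 27.5 ± 3.99 CPM in Control (SD, n = 3 each) with overlapping groups (log2 fold change 0.24, adjusted p 0.251).

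Idi1, the isomerase of isopentenyl diphosphate, had the opposite sign to its neighbours. It averaged 150.2 ± 29.2 CPM in LAMA3_KO and 186 ± 6.61 CPM in Control (SD, n = 3 each; log2 fold change -0.30, SE 0.15, adjusted p 0.153). LAMA3_KO 3, at 179 CPM, lay just above Control 2, at 178 CPM, and without LAMA3_KO 3 the gene was called lower (adjusted p 0.0476). Fdps, farnesyl diphosphate synthase, averaged 26.5 ± 4.49 CPM in LAMA3_KO and 19.5 ± 4.203 CPM in Control (log2 fold change 0.44, SE 0.20, adjusted p 0.111). With the replicate number as a block its adjusted p was 0.0338, and 26.7% of its exon bases are shared on the same strand with Gm43738, a gene model with no counts in any library.

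From squalene on, 5 of 11 genes rose and none fell by edgeR, DESeq2 or limma-voom. These are 45.5% and 0.0%, beside 17.4% and 18.8% of all tested genes by edgeR. The median log2 fold change of the 11 was 0.34. At an unadjusted p under 0.05, Tm7sf2 and Msmo1 were lower. The 5 were Fdft1, Sqle, Cyp51, Hsd17b7 and Dhcr7, which act at both ends and in the middle of the chain. Hsd17b7 showed the largest log2 fold change of the 31 genes.

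Fdft1, squalene synthase (ENSMUSG00000021273, chromosome 14, 63145150 to 63179578, minus strand), had 124, 123 and 89.9 CPM in LAMA3_KO 1, 2 and 3, against 79.5, 79.8 and 63.5 CPM in Control 1, 2 and 3 (log2 fold change 0.60, SE 0.16, adjusted p 0.0233). LAMA3_KO 3 exceeded Control 2 by a smaller margin than the other LAMA3_KO libraries did. The call was lost without LAMA3_KO 1, LAMA3_KO 2 or Control 3 (adjusted p 0.079, 0.0675 and 0.0757 in that order). Its exons share 774 bases (18.3%) with exons of Ctsb on the opposite strand, whose reads cannot be told apart from its own where strand was not used.

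Sqle, squalene epoxidase (ENSMUSG00000022351, chromosome 15, 59315077 to 59331192, plus strand), had 235, 149 and 149.7 CPM in LAMA3_KO 1, 2 and 3, against 88.4, 99.3 and 85.4 CPM in Control 1, 2 and 3. LAMA3_KO 1 stood far above the other LAMA3_KO libraries, which were still above every Control library (log2 fold change 0.97, SE 0.19, adjusted p 0.00855). Lss, which folds squalene epoxide into lanosterol, averaged 74.2 ± 12.3 CPM in LAMA3_KO and 58.5 ± 8.77 CPM in Control (SD, n = 3 each). Its groups overlapped (log2 fold change 0.34, SE 0.16, adjusted p 0.124), and it was called higher without LAMA3_KO 3 (adjusted p 0.047).

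Cyp51, the demethylase that acts on lanosterol (ENSMUSG00000001467, chromosome 5, 4081145 to 4104746, minus strand), had 263, 239.7 and 172 CPM in LAMA3_KO 1, 2 and 3, against 132, 148 and 132 CPM in Control 1, 2 and 3. LAMA3_KO 3 was the lowest of its group and still above all Control libraries (log2 fold change 0.71, SE 0.17, adjusted p 0.0156). Without LAMA3_KO 1 or Control 3 the adjusted p was 0.0529 or 0.0535. Tm7sf2, a sterol reductase of the next step, had 13.5, 13.1 and 13.2 CPM in LAMA3_KO 1, 2 and 3, against 16.3, 16.2 and 15.8 CPM in Control 1, 2 and 3. Its libraries agreed closely within each group and the groups were apart, yet the difference was small (log2 fold change -0.28, SE 0.12, adjusted p 0.0988) and did not pass the test. Tm7sf2 shares 532 exon bases (12.1%) with Vps51 on the same strand.

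Of the 3 enzymes known to take methyl groups off the sterol ring as a complex, Msmo1, Nsdhl and Hsd17b7, only Hsd17b7 rose by edgeR, DESeq2 or limma-voom. Msmo1, the oxidase, had 204, 166 and 195 CPM in LAMA3_KO 1, 2 and 3, against 245, 258 and 218 CPM in Control 1, 2 and 3. All LAMA3_KO libraries lay below all Control libraries, short of the threshold (log2 fold change -0.35, SE 0.13, adjusted p 0.073). Nsdhl, the dehydrogenase, averaged 34.3 ± 5.56 CPM in LAMA3_KO and 37.1 ± 7.71 CPM in Control (SD, n = 3 each; log2 fold change -0.11, adjusted p 0.65), and its sign turned without Control 2 (log2 fold change 0.049).

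Hsd17b7, the ketoreductase (ENSMUSG00000026675, chromosome 1, 169949535 to 169969241, minus strand), had 108, 80.0 and 64.7 CPM in LAMA3_KO 1, 2 and 3, against 34.9, 48.5 and 38.6 CPM in Control 1, 2 and 3. Its lowest LAMA3_KO library exceeded its highest Control library, and the log2 fold change was 1.05 (SE 0.21, adjusted p 0.00854). As a description, chosen after the values were seen, the CPM of Hsd17b7 over that of Msmo1 was 0.530, 0.480 and 0.331 in LAMA3_KO 1, 2 and 3, against 0.142, 0.188 and 0.177 in Control 1, 2 and 3. The ratio was higher in every LAMA3_KO library than in any Control library. That follows from Hsd17b7 lying above and Msmo1 below Control in every LAMA3_KO library, and is no separate result.

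Ebp, the sterol isomerase, averaged 57.9 ± 5.70 CPM in LAMA3_KO and 50.2 ± 3.36 CPM in Control (SD, n = 3 each; log2 fold change 0.21, adjusted p 0.194). Sc5d, a sterol desaturase, averaged 48.7 ± 9.09 CPM in LAMA3_KO and 46.3 ± 0.07002 CPM in Control (log2 fold change 0.07, adjusted p 0.723), with Control libraries that differed by less than 1 CPM, and its sign turned under upper-quartile scaling (log2 fold change -0.0785) and without LAMA3_KO 1 (-0.0638). Neither separated the groups.

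Dhcr7, the reductase that turns dehydrocholesterol into cholesterol (ENSMUSG00000058454, chromosome 7, 143823145 to 143848410, plus strand), had 138, 123 and 75.6 CPM in LAMA3_KO 1, 2 and 3, against 64.2, 72.6 and 68.0 CPM in Control 1, 2 and 3. LAMA3_KO 3 lay within 4 CPM of Control 2, and the other LAMA3_KO libraries far above (log2 fold change 0.71, SE 0.21, adjusted p 0.0316). The call held in 7 of 14 alternatives, the fewest among the enzymes: it held without LAMA3_KO 3 and was lost without LAMA3_KO 1 (adjusted p 0.0994), LAMA3_KO 2 (0.0832), Control 1 (0.0847), Control 2 (0.0545) or Control 3 (0.0803). It was also lost with sex as a covariate (0.0776) and under upper-quartile scaling (0.0595).

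Per kilobase of exon, levels differed widely along the chain. In LAMA3_KO the highest mean levels were 114 CPM per kb for Hmgcs1, 50.9 for Cyp51, 42.9 for Idi1 and 40.2 for Pmvk. In Control the order was 77.1 CPM per kb for Hmgcs1, 52.9 for Idi1, 39.1 for Msmo1 and 31.1 for Cyp51. In Control the ranges over libraries of Hmgcs1 (61.3 to 87.8 CPM per kb), Idi1 (50.8 to 54.5) and Msmo1 (35.5 to 42.0) did not overlap, while Cyp51 (29.9 to 33.5) and Pmvk (24.1 to 31.6) did. The lowest were Tm7sf2 (3.02 CPM per kb in LAMA3_KO, 3.66 in Control) and Fdps (6.31 in LAMA3_KO, 4.64 in Control). Both share exon bases with another gene on the same strand, Tm7sf2 12.1% with Vps51 and Fdps 26.7% with Gm43738. How reads in shared bases were counted is not given, so the low place of these genes is uncertain.

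**Figure D2:**
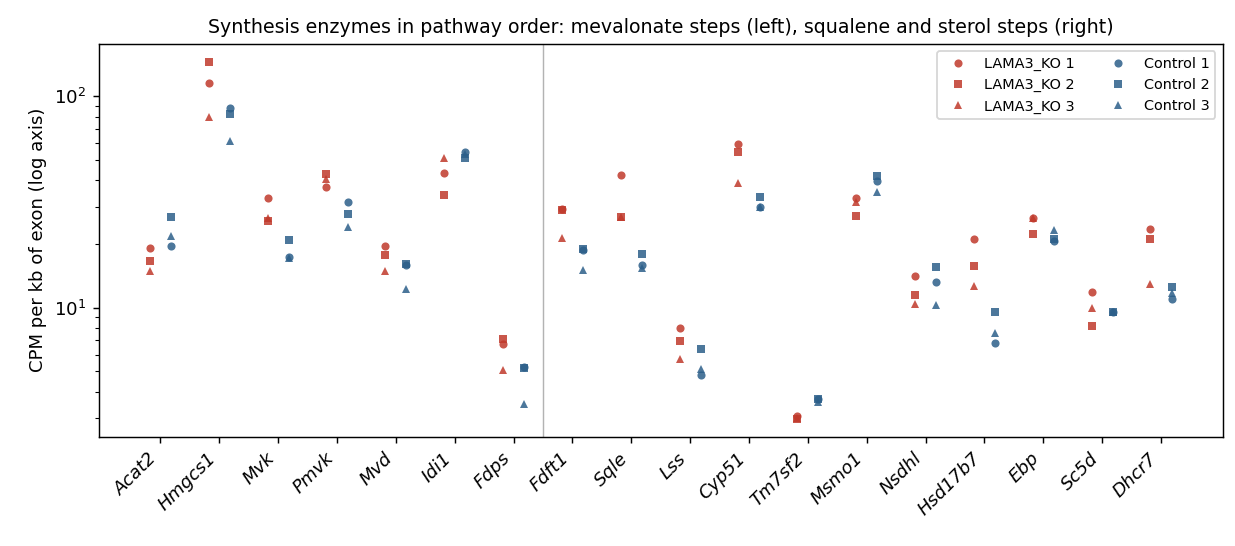
Levels of the 18 synthesis enzymes in pathway order, in CPM per kb of exon on a log axis, with 1 point per library and LAMA3_KO in red left of Control in blue. Hmgcs1 is the highest in both groups, and the red points of Mvk, Pmvk, Fdft1, Sqle, Cyp51, Hsd17b7 and Dhcr7 lie above their blue points.

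SREBP control was the role with calls in both directions: both INSIG genes fell, while Scap and Srebf2 rose. Of its 5 genes 40.0% rose and 40.0% fell, beside 17.4% and 18.8% of all tested genes. Insig1 (ENSMUSG00000045294, chromosome 5, 28071363 to 28078662, plus strand) and Insig2 (ENSMUSG00000003721, chromosome 1, 121304353 to 121332589, minus strand) encode the proteins that keep the SREBP carrier in the endoplasmic reticulum. Insig1 had 32.0, 36.8 and 33.4 CPM in LAMA3_KO 1, 2 and 3, against 60.0, 65.5 and 46.4 CPM in Control 1, 2 and 3. Its highest LAMA3_KO library was below its lowest Control library (log2 fold change -0.75, SE 0.15, adjusted p 0.00805). Insig2 had 83.3, 88.9 and 76.7 CPM in LAMA3_KO 1, 2 and 3, against 154, 164 and 152 CPM in Control 1, 2 and 3. The groups of Insig2 were far apart for their spread (log2 fold change -0.92, SE 0.11), and its adjusted p, 0.00172, was the smallest of the 31.

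Scap, the carrier of the SREBP proteins (ENSMUSG00000032485, chromosome 9, 110333288 to 110384950, plus strand), had 206, 204 and 191 CPM in LAMA3_KO 1, 2 and 3, against 123, 140.1 and 134 CPM in Control 1, 2 and 3. It was higher in each LAMA3_KO library than in any Control library (log2 fold change 0.60, SE 0.11, adjusted p 0.00652). Srebf2, which encodes SREBP2, the factor known mainly for cholesterol genes (ENSMUSG00000022463, chromosome 15, 82147181 to 82205379, plus strand), had 288, 258 and 179 CPM in LAMA3_KO 1, 2 and 3, against 125, 135 and 111 CPM in Control 1, 2 and 3. LAMA3_KO 3 was again the lowest of its group and above all Control libraries (log2 fold change 0.96, SE 0.19, adjusted p 0.00775).

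Srebf1, which encodes SREBP1, known mainly for fatty acid genes, had 191, 185 and 133 CPM in LAMA3_KO 1, 2 and 3, against 133, 136 and 114 CPM in Control 1, 2 and 3. LAMA3_KO 3 lay among the Control libraries and the gene did not pass the test (log2 fold change 0.41, SE 0.16, adjusted p 0.0788). Without LAMA3_KO 3 it was called higher (adjusted p 0.0162).

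**Figure D3:**
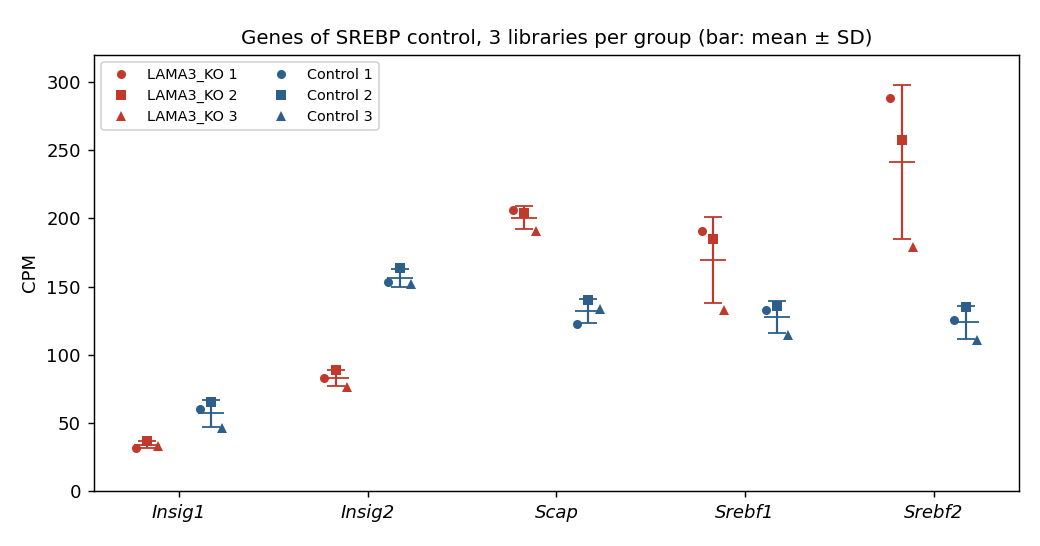
CPM of the 5 genes of SREBP control, with 1 point per library and bars for the mean ± SD of 3 libraries, LAMA3_KO in red left of Control in blue. Insig1 and Insig2 are lower and Scap and Srebf2 higher in every LAMA3_KO library, and the groups of Srebf1 overlap.

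The log2 ratio of Srebf1 to Srebf2 was -0.60, -0.48 and -0.43 in LAMA3_KO 1, 2 and 3, against 0.08, 0.01 and 0.04 in Control 1, 2 and 3. The means were -0.50 ± 0.086 in LAMA3_KO and 0.045 ± 0.036 in Control (SD, n = 3 each), so relative to Srebf2 the reads of Srebf1 were fewer in every LAMA3_KO library than in any Control library. The difference was -0.55 with an exact permutation p of 0.1, 2-sided, the smallest p that 3 against 3 allows. The log2 ratio of Insig1 to Insig2 averaged -1.28 ± 0.091 in LAMA3_KO and -1.46 ± 0.216 in Control (SD, n = 3 each). The groups overlapped (difference 0.18, exact permutation p 0.3, 2-sided), and without Control 3 the difference was 0.06.

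As a description chosen after the values were seen, summed CPM of Insig1 and Insig2 was 115, 126 and 110.1 in LAMA3_KO 1, 2 and 3, against 214, 229 and 198 in Control 1, 2 and 3. Scap CPM over that sum was 1.79, 1.62 and 1.74 in LAMA3_KO 1, 2 and 3, against 0.575, 0.611 and 0.674 in Control 1, 2 and 3. The ratio was higher in each LAMA3_KO library than in any Control library. That follows from Scap lying above and both INSIG genes below Control in every LAMA3_KO library, and is no separate result. These are ratios of CPM without regard to gene length, and of messages and not of proteins.

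**Figure D4:**
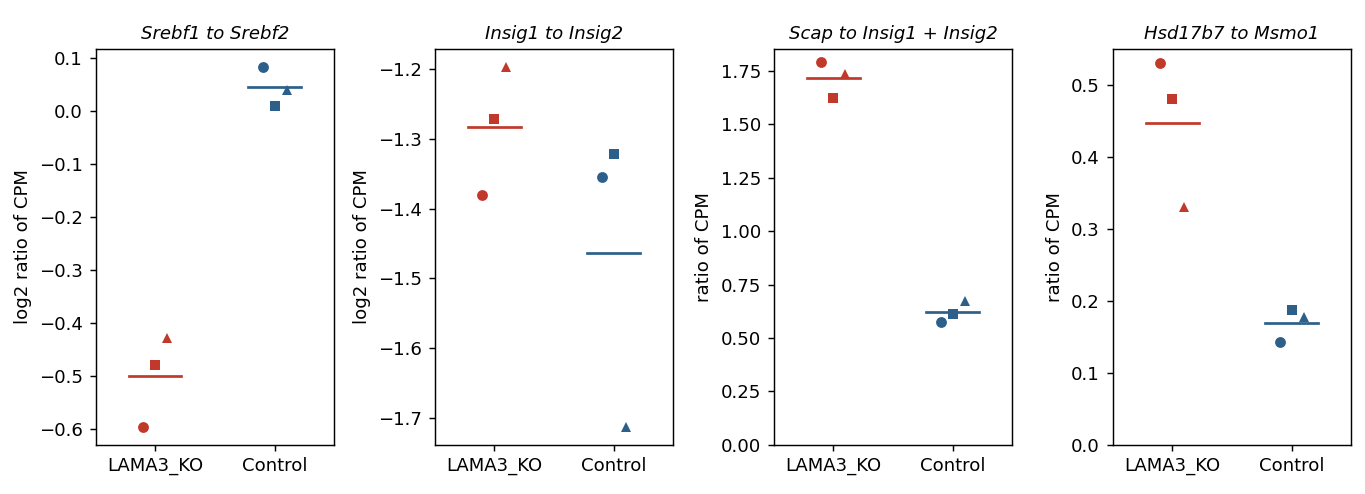
From left to right, the log2 ratio of Srebf1 to Srebf2, the log2 ratio of Insig1 to Insig2, the ratio of Scap to summed Insig1 and Insig2, and the ratio of Hsd17b7 to Msmo1, all of CPM, with 1 point per library (circle, square and triangle for replicates 1, 2 and 3), a line at the mean, and LAMA3_KO left of Control. The groups are apart in every panel except the second, where LAMA3_KO 1 lies at -1.38 below Control 1 at -1.36 and Control 2 at -1.32. In the panels of Scap and of Hsd17b7 the separation follows from the single genes, which lay apart in opposite directions, and these ratios were chosen after the values were seen.

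Of the 3 genes of transport within the cell, Stard4 and Npc1 rose (66.7%, beside 17.4% of all tested genes) and Npc2 did not pass the test. Stard4, a soluble protein that moves cholesterol between membranes (ENSMUSG00000024378, chromosome 18, 33199355 to 33213862, minus strand), had 116, 102 and 77.3 CPM in LAMA3_KO 1, 2 and 3, against 58.3, 48.3 and 44.8 CPM in Control 1, 2 and 3. The groups were apart (log2 fold change 0.96, SE 0.17, adjusted p 0.00617). Npc2, which hands cholesterol to NPC1 inside the lysosome, averaged 133 ± 10.02 CPM in LAMA3_KO and 132 ± 12.6 CPM in Control (SD, n = 3 each; log2 fold change 0.01, SE 0.12, adjusted p 0.955). The sign of so small a value turned under several settings, among them upper-quartile scaling (-0.14).

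Npc1, the lysosomal membrane exporter of cholesterol (ENSMUSG00000024413, chromosome 18, 12189692 to 12236400, minus strand), had 132, 179 and 92.2 CPM in LAMA3_KO 1, 2 and 3, against 90.6, 84.2 and 73.0 CPM in Control 1, 2 and 3. LAMA3_KO 2 was the highest, and LAMA3_KO 3 lay within 2 CPM of Control 1 (log2 fold change 0.70, SE 0.23, adjusted p 0.044). The call held without LAMA3_KO 3 and was lost without LAMA3_KO 1 (adjusted p 0.0958), LAMA3_KO 2 (0.109), Control 1 (0.0749), Control 2 (0.0887) or Control 3 (0.127). It was also lost with sex as a covariate (0.0757), under upper-quartile scaling (0.0825) and by limma-voom (0.053). Its exons share 511 bases (4.5%) with Rmc1 on the opposite strand.

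Npc1 is a neighbour of the targeted gene: on chromosome 18 its start lies at -97.4 kb from that of Lama3. Within 500 kb of the Lama3 start, 9 genes were tested, Lama3 included, of which 2 rose and 2 fell (22.2% each, beside 17.4% higher and 18.8% lower of all tested genes) and 5 were not called. Between Npc1 and Lama3 lies Ankrd29, which averaged 8.17 ± 3.63 CPM in LAMA3_KO and 16.7 ± 2.00 CPM in Control (SD, n = 3 each; log2 fold change -1.03, adjusted p 0.0347). Beyond Npc1, Rmc1 had a log2 fold change of -0.13 (adjusted p 0.502) and Riok3 of 0.35 (adjusted p 0.0369). The calls of Ankrd29 and Riok3 were each lost in several of the fits that left out a library (adjusted p up to 0.0989 and 0.127), Riok3 in all of these fits and Ankrd29 in those without LAMA3_KO 1, Control 1, Control 2 or Control 3. Riok3 also lost its call under upper-quartile scaling (adjusted p 0.176), with the replicate number as a block (0.0613) and with sex as a covariate (0.0639). The part of the floxed allele in the change of Npc1 was not tested.

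**Figure D5:**
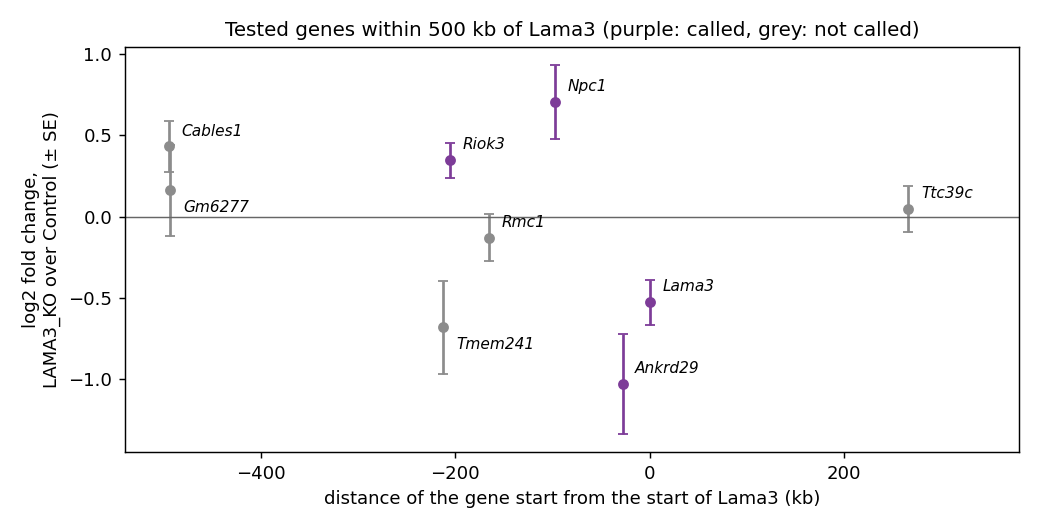
Log2 fold change of LAMA3_KO over Control (± SE) of the 9 tested genes whose start lies within 500 kb of the start of Lama3, against the distance in kb, purple where called and grey where not. Npc1 and Riok3 are above 0, and Ankrd29 and Lama3 are below.

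In the LXR and efflux branch 1 of 5 genes rose and none fell by edgeR, DESeq2 or limma-voom, with 0 lower at an unadjusted p under 0.05. By edgeR 17.4% of all tested genes were called higher and 18.8% lower, so 1 riser among 5 is close to the background share. Nr1h2, which encodes LXR beta, the form found in most tissues (ENSMUSG00000060601, chromosome 7, 44549616 to 44553951, minus strand), had 84.6, 88.6 and 82.4 CPM in LAMA3_KO 1, 2 and 3, against 59.1, 65.7 and 56.7 CPM in Control 1, 2 and 3. The libraries of each group were close together and the groups apart (log2 fold change 0.49, SE 0.10, adjusted p 0.01). Nr1h3, which encodes LXR alpha, was low, with 1.23, 1.12 and 1.16 CPM in LAMA3_KO 1, 2 and 3, against 1.68, 1.67 and 1.89 CPM in Control 1, 2 and 3. These are 29 to 48 counts per library, and the lower values in LAMA3_KO did not pass the test (log2 fold change -0.58, SE 0.25, adjusted p 0.108).

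The targets of LXR in this group did not pass the test. Abca1, which exports cholesterol to lipid-poor apolipoprotein, averaged 131 ± 28.6 CPM in LAMA3_KO and 113 ± 18.2 CPM in Control (SD, n = 3 each; log2 fold change 0.21, SE 0.19, adjusted p 0.418). Abcg1, an exporter to larger particles, had 25.0, 41.2 and 17.7 CPM in LAMA3_KO 1, 2 and 3, against 22.6, 19.4 and 16.8 CPM in Control 1, 2 and 3. LAMA3_KO 2 stood above all other libraries and LAMA3_KO 3 among the Control libraries (log2 fold change 0.51, SE 0.29, adjusted p 0.197). Mylip, a ubiquitin ligase that removes lipoprotein receptors, averaged 49.7 ± 10.3 CPM in LAMA3_KO and 40.2 ± 3.76 CPM in Control (log2 fold change 0.31, SE 0.16, adjusted p 0.172). Without LAMA3_KO 3, Abcg1 and Mylip were called higher (adjusted p 0.0413 and 0.0426).

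The libraries of LAMA3_KO did not move equally. LAMA3_KO 3 was the lowest of its group in 20 of the 31 genes (64.5%), against 38.1% of all tested genes, and LAMA3_KO 1 was the highest in 19 (61.3%), against 33.9%. In Control, library 3 was the lowest in 18 of 31 genes (58.1%), against 30.2%, and library 2 the highest in 18, against 33.0%. Over the 12 genes that rose, the median log2 deviation from the Control mean was 0.90, 0.77 and 0.53 in LAMA3_KO 1, 2 and 3. Over Insig1 and Insig2 it was -0.87, -0.72 and -0.90, so LAMA3_KO 3 was not the mildest library for the genes that fell. LAMA3_KO 3 is the male library of its group, and with sex as a covariate 10 of the 31 genes rose and 2 fell. Leaving out LAMA3_KO 3 gave 17 genes higher, and leaving out Control 3 gave 7.

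Of 78 other pathway genes on 8 lists, 76 were found and 75 tested. Of these 17 rose (22.7%) and 10 fell (13.3%), beside 17.4% and 18.8% of all tested genes, and the median log2 fold change was 0.14. The sterol helpers, partners of the synthesis enzymes, gave 1 higher and 4 lower of 8 (12.5% and 50.0%). Por, the reductase that feeds electrons to Cyp51 and Sqle, had 93.7, 95.8 and 69.6 CPM in LAMA3_KO 1, 2 and 3, against 41.9, 47.4 and 39.1 CPM in Control 1, 2 and 3. It was higher in every LAMA3_KO library (log2 fold change 1.01, SE 0.15, adjusted p 0.00351). Cyb5a, an electron carrier that serves Msmo1 and Sc5d, fell to 139.6 ± 13.4 CPM in LAMA3_KO, against 209 ± 32.4 CPM in Control (SD, n = 3 each; log2 fold change -0.58, adjusted p 0.0197). The call of Cyb5a was lost without LAMA3_KO 1 or 2 or Control 1 or 3 (adjusted p 0.054 to 0.069). Erg28, known from yeast as the scaffold of the demethylation complex, fell to 31.3 ± 3.51 CPM in LAMA3_KO, against 46.6 ± 2.21 CPM in Control (SD, n = 3 each; log2 fold change -0.58, SE 0.12, adjusted p 0.00917).

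Among 11 genes of SREBP processing and turnover 2 rose (18.2%, beside 17.4% of all tested genes). They were Sec24c, a coat protein of the vesicles that carry SCAP (log2 fold change 0.44, adjusted p 0.0251), and Rnf145, a ubiquitin ligase of the endoplasmic reticulum (log2 fold change 0.49, adjusted p 0.0355). Neither call was stable: that of Sec24c was lost without LAMA3_KO 1 or 2 or Control 1 or 3 (adjusted p up to 0.0853), and that of Rnf145 without any 1 library but LAMA3_KO 3 (up to 0.116). Both calls were also lost under upper-quartile scaling (adjusted p 0.0835 and 0.092), and that of Rnf145 with sex as a covariate (0.0595). The cleaving proteases Mbtps1 (log2 fold change 0.11, adjusted p 0.564) and Mbtps2 (0.21, adjusted p 0.224) did not pass. Of the 14 fatty acid targets of SREBP1, 2 were higher (14.3%, beside 17.4% of all tested genes) and 3 lower (21.4%, beside 18.8%). Elovl6, which lengthens fatty acids, had 188, 180.3 and 143 CPM in LAMA3_KO 1, 2 and 3, against 308, 697 and 571 CPM in Control 1, 2 and 3 (log2 fold change -1.62, SE 0.29, adjusted p 0.0066). Acss2, which makes acetyl-CoA from acetate, had 16.9, 17.2 and 14.2 CPM in LAMA3_KO 1, 2 and 3, against 30.9, 44.9 and 31.4 CPM in Control 1, 2 and 3 (log2 fold change -1.15, SE 0.18, adjusted p 0.00376). Both were far lower in LAMA3_KO, while Acaca, the first enzyme of fatty acid synthesis, was higher (log2 fold change 0.61, adjusted p 0.0405), as was its regulator Mid1ip1 (0.44, adjusted p 0.0463). The calls of Acaca and Mid1ip1 were lost without LAMA3_KO 1 or 2 or Control 1 or 3 (adjusted p up to 0.122 and 0.142). They were also lost under upper-quartile scaling (adjusted p 0.0867 and 0.13) and with the replicate number as a block (0.0816 and 0.0516). The same held with sex as a covariate (0.0693 and 0.0984), and for Mid1ip1 by limma-voom (0.0509).

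Among 15 tested genes of uptake, storage and transport 5 rose and 1 fell (33.3% and 6.7%, beside 17.4% and 18.8% of all tested genes). Osbpl1a, an oxysterol-binding protein, had 114, 101 and 86.2 CPM in LAMA3_KO 1, 2 and 3, against 56.2, 51.3 and 44.8 CPM in Control 1, 2 and 3 (log2 fold change 0.98, SE 0.14, adjusted p 0.00304). Osbpl1a too lies near the targeted gene: its start is 608.0 kb from that of Lama3, outside the 500 kb window above. The gene is on the minus strand, and its far end, the one nearer to Lama3, lies 172 kb past the end of Lama3. The part of the floxed allele in this change was not tested. Gramd1b, which moves cholesterol from the plasma membrane to the endoplasmic reticulum, was lower (log2 fold change -0.69, adjusted p 0.0272), a call lost without any 1 of the 3 LAMA3_KO libraries or Control 1 (adjusted p up to 0.0941). That call was also lost with the replicate number as a block (adjusted p 0.0568).

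Of 8 partners and targets of LXR 3 rose and 2 fell (37.5% and 25.0%, beside 17.4% and 18.8% of all tested genes). The 2 largest changes were in Abcg4, a sterol exporter related to Abcg1, and Smpdl3a, a secreted phosphodiesterase. Abcg4 had 30.5, 22.2 and 39.0 CPM in LAMA3_KO 1, 2 and 3, against 6.37, 7.72 and 6.68 CPM in Control 1, 2 and 3 (log2 fold change 2.14, SE 0.22, adjusted p 0.00127). Smpdl3a had 325, 293 and 308 CPM in LAMA3_KO 1, 2 and 3, against 126, 83.4 and 105 CPM in Control 1, 2 and 3 (log2 fold change 1.55, SE 0.17, adjusted p 0.00141). Other LXR targets were lower, namely Arl4c, a small GTPase (log2 fold change -0.68, adjusted p 0.0261), and Lpcat3, which remodels phospholipids (-0.60, adjusted p 0.0394). The call of Arl4c was lost without LAMA3_KO 1 or 3 or Control 1 or 2 (adjusted p up to 0.0811), and that of Lpcat3 without LAMA3_KO 2 or 3 or Control 1 or 2 (up to 0.115). Lpcat3 also lost its call with the replicate number as a block (adjusted p 0.0527) and with sex as a covariate (0.0605).

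All 3 tested genes of sterol sulfate metabolism rose (100.0%, beside 17.4% of all tested genes). The list was chosen with earlier results of these data known, so this count is a description and no test of the pathway. Sult2b1, the sulfotransferase that makes cholesterol sulfate in the upper epidermis, had 97.5, 65.0 and 91.6 CPM in LAMA3_KO 1, 2 and 3, against 42.5, 51.2 and 47.2 CPM in Control 1, 2 and 3 (log2 fold change 0.85, SE 0.17, adjusted p 0.00812). Slc10a6, a transporter of steroid sulfates, had 40.5, 40.8 and 52.2 CPM in LAMA3_KO 1, 2 and 3, against 2.67, 2.52 and 3.89 CPM in Control 1, 2 and 3 (log2 fold change 3.87, SE 0.21, adjusted p 0.000226). Papss2, which makes the sulfate donor, was higher too (log2 fold change 0.66, adjusted p 0.0405) and was named outside the rule, after its value was seen. Among 10 genes of the isoprenoid branch only Icmt, which methylates prenylated proteins, rose (log2 fold change 0.79, SE 0.16, adjusted p 0.00854). By edgeR 17.4% of all tested genes were called higher and 18.8% lower, so 1 riser among 10 is below the background share. None of 6 oxysterol enzymes was called by edgeR, DESeq2 or limma-voom, with 0 at an unadjusted p under 0.05, and Ch25h, a hydroxylase of cholesterol, had a log2 fold change of -1.67 (adjusted p 0.138) at 5 to 90 counts per library.

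Markers of skin cell types, keratinocytes included, differed in how they moved: some lists separated the groups and others overlapped. Of all tested genes 17.4% were called higher and 18.8% lower. Of 12 sebaceous markers, of cells that also make lipids, 8 fell (66.7%) and none rose by edgeR, DESeq2 or limma-voom. At an unadjusted p under 0.05, 0 were higher. The summed CPM of the 12 was 769 to 1304 in LAMA3_KO libraries, against 1638 to 2033 in Control libraries. Scd1, the highest of them, was not called by edgeR (adjusted p 0.184). Scd1 and Fasn, also not called, stand on the list of SREBP1 fatty acid targets too. Of 8 tested markers of suprabasal keratinocytes 6 rose (75.0%). The summed CPM of the list was 30780 to 46810 in LAMA3_KO, against 14780 to 17280 in Control, with Flg at 0 in Control 1 and 2. Of 8 basal markers 2 rose and 1 fell (25.0% and 12.5%), with 16100 to 21890 summed CPM in LAMA3_KO and 16930 to 23330 in Control. All 11 tested hair markers fell, to a summed 2.03 to 2.87 CPM in LAMA3_KO, against 70.4 to 277 CPM in Control.

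Of the immune markers, all 7 T cell markers fell (summed 63.4 to 73.7 CPM in LAMA3_KO, 139 to 282 CPM in Control). Of 6 Langerhans markers 1 fell (16.7%, beside 18.8% of all tested genes), and the groups overlapped in all 6 (summed 739 to 946 CPM in LAMA3_KO, 719 to 1535 CPM in Control). Of 4 tested neutrophil markers 3 rose (75.0%), with a summed 171 to 1535 CPM in LAMA3_KO and 27.4 to 43.8 CPM in Control. The 3 were S100a8, S100a9 and Cxcr2 (log2 fold change of Cxcr2 4.55, adjusted p 0.00472). In LAMA3_KO 3, S100a8 and S100a9 held 655.5 and 833.1 of the summed 1535 CPM, and in LAMA3_KO 2 they held 56.2 and 88.45 of 171 CPM. The defining Ly6g and Retnlg were at 0 in every library, Csf3r had 0 to 1 counts, and keratinocytes are also known to make S100a8 and S100a9. Of 9 tested macrophage markers 3 rose and 1 fell (33.3% and 11.1%, beside 17.4% and 18.8% of all tested genes). Their list summed to 40.9 to 62.7 CPM in LAMA3_KO and 32.1 to 69.8 CPM in Control. Fibroblast markers gave 2 of 6 lower (33.3%), with 35.4 to 46.1 CPM in LAMA3_KO and 28.3 to 89.5 CPM in Control. Melanocyte markers gave 4 of 5 lower (80.0%), with 53.1 to 58.8 CPM in LAMA3_KO and 78.9 to 201 CPM in Control. Adipocyte markers summed to 0.419 to 7.33 CPM in LAMA3_KO and 3.81 to 7.77 CPM in Control. Endothelial markers summed to 1.08 to 1.71 CPM in LAMA3_KO and 1.98 to 3.03 CPM in Control, lower in every LAMA3_KO library. Only 1 of 6 adipocyte and 1 of 5 endothelial markers had enough counts to be tested, and neither was called. The part of these cell types in the sterol gene differences was not tested.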

How the data were processed

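Per the labels, RNA of keratinocytes from 3 LAMA3_KO and 3 Control mice was sequenced, 1 library per mouse. The authors deposited raw whole-number counts per Ensembl gene in 1 table. The tools named in the submitters' processing notes are TopHat 1.3.3 and, beside it, featureCounts 1.4.6 and Cuffdiff 1.3.0, with build GRCm38. How strand and reads with several matches were treated, and which annotation was counted, is not given in the sources used here, so counts of overlapping genes and close copies are uncertain.

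Symbols, exon lengths and positions came from GENCODE M21 on GRCm38 and promoter windows from RefSeq on GRCm38.p6. Of 45513 identifiers, 44585 were given a symbol. From the deposited counts, edgeR 4.0.16 under R 4.3.3 was run with TMM scaling, filterByExpr by group and robust quasi-likelihood fits on the group alone, with Benjamini-Hochberg adjustment over 15513 genes. SE is that of the log2 fold change of LAMA3_KO over Control. Precision is limited by 3 libraries a group and, for low genes, by their counts. Alternatives were DESeq2 1.42.0, limma-voom (limma 3.58.1), other scalings and filters, a replicate block, sex as a covariate, an adjusted p under 0.01 and each library left out.

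The members and lists were chosen with earlier results of these data known. Other pathway genes were named by a rule, the called genes of each list with the smallest p in each direction or, with none called, the gene with the smallest p. Faxdc2 and Sts, also listed, were not analysed here, nor were protein sequences.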

Additional observations from a re-analysis of the deposited data

How the results depend on the processing

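Of 465 values of the 31 genes over the alternatives, 418 kept their direction and side of the threshold, 28 lost a call, 12 gained one and 7 turned sign. Of the 14 genes called, 9 were called in all 14 alternatives at an adjusted p under 0.05: Mvk, Sqle, Hsd17b7, Insig1, Insig2, Scap, Srebf2, Stard4 and Nr1h2. The 12 genes that rose became 5 at an adjusted p under 0.01 and between 7 (without Control 3) and 17 (without LAMA3_KO 3) when 1 library was left out, and the 2 that fell became 5 under upper-quartile scaling, which added Acat2, Tm7sf2 and Msmo1. Over all tested genes, 2693 were higher and 2919 lower. Higher calls numbered 1756 under upper-quartile scaling, where 3988 were lower, and 1115 at an adjusted p under 0.01, where 1009 were lower. Leaving out 1 library gave 1586 (without Control 3) to 2754 higher and 1714 (without Control 3) to 2771 lower calls. Without LAMA3_KO 1 the counts were 1681 higher and 1735 lower, and without LAMA3_KO 2 there were 1750 lower. Log2 fold changes that turned sign were those of Nsdhl (0.0488 without Control 2, with a range of -0.2622 to 0.0488 over the fits that left out 1 library), Sc5d (-0.0785 under upper-quartile scaling, -0.0638 without LAMA3_KO 1, range -0.0638 to 0.2039), Npc2 (-0.138 under upper-quartile scaling, -0.0032 with a filter of 1 CPM, -0.0356 without LAMA3_KO 3, -0.041 without Control 2, range -0.041 to 0.0862) and the neighbour of Lama3, Ttc39c (-0.0993 under upper-quartile scaling, -0.0805 without LAMA3_KO 3, range -0.0805 to 0.169). None of these was called in any setting, and the cause was not tested. The difference in the log2 ratio of Srebf1 to Srebf2 lay between -0.58 and -0.50 when 1 library was left out, and that of Insig1 to Insig2 between 0.06 and 0.25.

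The labels do not give the replicate numbers as pairs of mice. The deviations of same-numbered libraries correlated at -0.183, -0.0636 and 0.437, and only the libraries numbered 3 correlated best with their own number. So few values cannot decide whether the numbers pair the mice. With the replicate block, 13 of the 31 genes rose and 2 fell, Fdps being the addition, and 2422 genes were higher and 2701 lower over all tested genes. The differences in the 2 log2 ratios were -0.55 and 0.18 with the replicate block as without it. With 20126395 counts or more per library, depth limits low genes such as Nr1h3, at 29 to 48 counts, and Ch25h, at 5 to 90.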
